A study of Mus musculus with 19 samples.

Results

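10 genes that are known from developing and adult brain as targets of thyroid hormone were followed in the cerebral cortex of fetal mice. They were Hr, Camk4, Nrgn, Rasd2, Nefh, Nefm, Homer1, Ntf3, Stat5a and Thrsp. Their probe sets were found by gene symbol in the authors' annotation, without use of any measured value, and came to 24 probe sets out of 45037 on the array after 64 control probe sets were left out. The probe sets with 1 gene symbol name 20406 genes, of which these are 10. A probe set is the group of short probes on an Affymetrix array that together report 1 transcript or part of it. The authors called 18 of the 24 present and 6 absent. The brightest probe set of each gene, called its lead here, was present for 9 genes and absent for Nefh.

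RNA came from 1 of 2 equal parts of the cerebral cortex of single C57BL/6 wild type fetuses, labelled female, at gestational day 16, with 1 fetus to an array and 19 arrays in all. All dams drank water with 2% sucrose from gestational day 13 and received 1 injection 12 hours before death. Control dams (5 arrays) received 100 µl of 0.9% saline. The hypo group (5 arrays) also drank 1% perchlorate and 0.025% methimazole, which block iodide uptake and hormone synthesis in the thyroid, and received saline; the source labels of both goitrogen groups say PTU instead, the usual abbreviation of propylthiouracil, so the labels disagree on the drug. The hypo+ group (5 arrays) drank the same goitrogens and received 25 µg thyroxine (T4) and 2.5 µg triiodothyronine (T3) for each 100 g of body weight, which the submitters describe as a replacement dose. The hyper group (4 arrays) drank sucrose water and received 100 µg T4 and 10 µg T3 for each 100 g. The treatments were given to 20 dams, 5 in each group, and the submitters removed 1 of 20 samples for poor quality. The labels do not state that each array is of a different dam, so the p-values cover only the variation among these samples. The goitrogen water was given for 3 days.

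Signals ran from 8.0 to 29808.5, and array medians from 73.1 to 106. Although the labels name fetuses as female, 2 arrays, hypo+ replicate 1 and hyper replicate 4, read 695.9 and 546.7 for Ddx3y, a gene of the Y chromosome, against at most 11.3 on the others. The labels also name a rat array, while the probe sets carry mouse gene names.

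Thyroid hormone acts mainly through nuclear receptors that sit on DNA next to their target genes. Without hormone the receptors recruit corepressors, and with T3 they exchange them for coactivators. In the brain such targets include a corepressor, calcium and calmodulin signalling proteins, neurofilaments and synaptic scaffolds, and many were defined in rodents after birth.

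Both promoters of Homer1 and one each of Thrsp and Stat5a are shown because Homer1 and Thrsp hold probe sets on which the results turn, and because Homer1 and Stat5a promoters hold the letters searched for. Sequences are from RefSeq, build GRCm38.p6, from 250 bases before to 50 after the start of transcription, on the strand of the gene. Capitals mark AGGTCA, the core of the sequence that thyroid hormone receptors bind, or its reverse complement TGACCT.
Homer1, chr13:93303507-93303806: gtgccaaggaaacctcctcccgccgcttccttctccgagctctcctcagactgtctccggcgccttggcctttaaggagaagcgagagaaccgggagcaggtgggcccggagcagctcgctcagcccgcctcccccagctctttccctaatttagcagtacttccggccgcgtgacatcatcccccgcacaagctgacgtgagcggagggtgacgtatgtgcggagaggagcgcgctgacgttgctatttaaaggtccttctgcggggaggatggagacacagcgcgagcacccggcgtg
Homer1, chr13:93307784-93308083: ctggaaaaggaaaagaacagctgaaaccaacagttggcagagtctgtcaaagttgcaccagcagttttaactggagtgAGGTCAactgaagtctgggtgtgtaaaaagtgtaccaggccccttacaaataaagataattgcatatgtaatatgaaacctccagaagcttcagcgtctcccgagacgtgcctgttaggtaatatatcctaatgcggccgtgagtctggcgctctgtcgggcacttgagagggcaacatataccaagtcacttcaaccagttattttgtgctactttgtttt
Thrsp, chr7:97417501-97417800: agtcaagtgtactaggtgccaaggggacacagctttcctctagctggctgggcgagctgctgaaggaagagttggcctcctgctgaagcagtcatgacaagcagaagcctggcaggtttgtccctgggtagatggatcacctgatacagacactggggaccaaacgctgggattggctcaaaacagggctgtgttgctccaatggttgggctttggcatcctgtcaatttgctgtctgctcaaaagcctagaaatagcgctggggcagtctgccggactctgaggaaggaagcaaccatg
Stat5a, chr11:100859406-100859705: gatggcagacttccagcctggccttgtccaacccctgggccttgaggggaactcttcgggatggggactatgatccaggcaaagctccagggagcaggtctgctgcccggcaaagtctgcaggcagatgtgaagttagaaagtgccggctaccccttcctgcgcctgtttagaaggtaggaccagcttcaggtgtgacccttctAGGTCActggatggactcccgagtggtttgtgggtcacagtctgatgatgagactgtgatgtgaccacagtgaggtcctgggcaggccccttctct
AGGTCA or TGACCT was found in 5340 of 32851 promoters of the same length (16.3%), so 1 match in a window is common. Promoters were at hand for 6 of the member genes (9 in all), and 3 of these held a match, at bases -172 to -167 of the second Homer1 start, -46 to -41 of the first Stat5a start and -44 to -39 of the second. None of the 9 held a second AGGTCA in the same direction after a gap of 4 bases, which 5 of the 32851 promoters have (0.0152%), TGACGTCA or TATAAA, searched on both strands.

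No member passed the test in hypo against control or in hyper against control, and 1 passed in hypo+ against control. Signals were tested as log2(signal + 32) with limma's moderated test over all 19 arrays and with Benjamini-Hochberg adjustment over 45037 probe sets, and differences are given on that scale as estimate ± SE unless SD is named. In hypo against control limma called 0 of 24 members, against 0% of all probe sets, no member's groups were free of overlap, against 1.28% of all, and 1 member had an unadjusted p under 0.05, against 8.19% of all. In hyper against control limma called 0 members, against 0.175% of all probe sets, and 3 had an unadjusted p under 0.05, against 10.5%. In hypo+ against control it called 1 member, a Camk4 probe set that was lower, against 3.11% of all and 1.9% counted as lower, and 10 members had an unadjusted p under 0.05, against 16.8%. In hypo+ against hypo it called 0 members, against 3.16% of all, and 5 had an unadjusted p under 0.05, against 17%. The comparisons of hypo, hypo+ and hyper with control share the control arrays. In whole tissue a lower signal from fewer cells of a type and from less RNA per cell cannot be told apart.

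Over the 24 probe sets the median log2 difference from control was -0.09 in hypo, -0.13 in hypo+ and 0.01 in hyper, against medians of -0.01, -0.01 and 0.01 over all probe sets. In hypo 8 of the 24 differences were positive, in hypo+ 7 and in hyper 14, against 44.9%, 47.3% and 54.8% of all probe sets. Members of 1 gene share transcripts, so these counts are not of independent genes. With 1 lead per gene the medians were -0.05 in hypo, -0.01 in hypo+ and 0.03 in hyper, with 4, 5 and 6 of the 10 leads positive.

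Klf9, a transcription factor gene that thyroid hormone receptors act on directly, had 7 probe sets, each annotated with a second symbol too. In hyper against control 3 of them rose (limma), and the differences over the 7 ran from 0.01 to 2.08. The brightest Klf9 probe set had mean signals of 556 ± 143 in hyper and 130 ± 24.0 in control (SD, n = 4 and 5), a difference of 1.84 ± 0.13 (adjusted p = 8.49e-07). In hypo+ against hypo 1 of the 7 rose, at 0.60 ± 0.14 (adjusted p = 0.0283), and the brightest Klf9 probe set differed by 0.20 ± 0.12 (adjusted p = 0.455). Klf9 is no member, and was chosen after its values were seen.

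**Figure D1:**
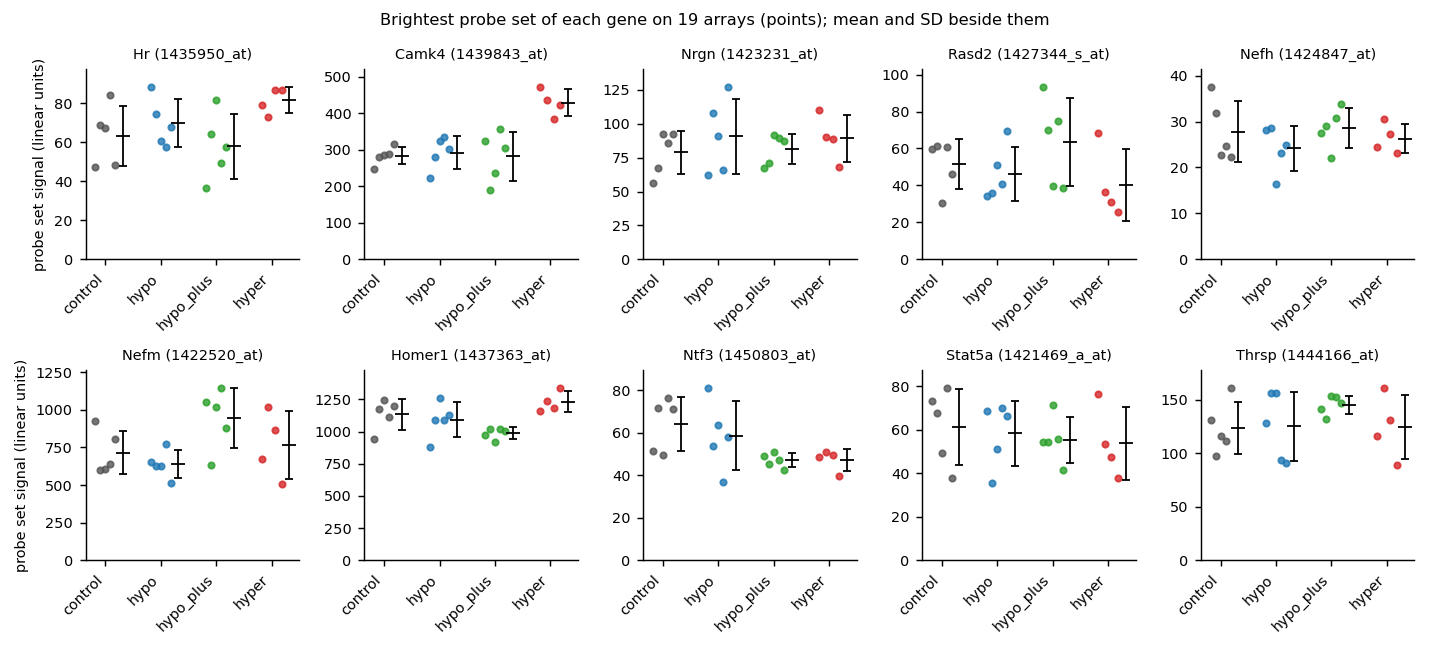
Signal of the lead probe set of each of the 10 genes (linear units) on each array, by group, with points for arrays and the mean ± SD for groups. The 4 hyper arrays of Camk4 lie between 383.7 and 473.4, above the control arrays at 248.6 to 315.2.

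Hr encodes hairless, a corepressor that binds thyroid hormone receptors. Its lead read 47.5, 68.7, 67.3, 84.1 and 48.5 in control replicates 1 to 5, and 88.4, 74.5, 60.8, 57.3 and 67.5 in hypo. It read 36.5, 64.3, 81.3, 49.3 and 57.7 in hypo+, and 79.2, 72.9, 86.9 and 86.8 in hyper. The hyper arrays lay high, but control replicate 4, hypo replicates 1 and 2 and hypo+ replicate 3 reached their range. Hyper exceeded control by 0.27 ± 0.13 (limma, adjusted p = 0.507). The difference of the hormone responses, hypo+ over hypo less hyper over control, was -0.46 ± 0.18 (adjusted p = 0.688) for the lead and 0.05 ± 0.25 (adjusted p = 0.993) for the other Hr probe set. Between hypo+ and hypo the lead was at -0.19 ± 0.13 and the other at 0.28 ± 0.17, and neither passed. The other Hr probe set differed by 0.23 ± 0.18 between hyper and control (adjusted p = 0.728), and across the 19 arrays the probe sets of Hr correlated with r = -0.13.

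Camk4 encodes calcium and calmodulin dependent kinase IV, a nuclear kinase of neurons that acts on transcription factors such as CREB. Its lead read 248.6, 280.7, 286.6, 290.0 and 315.2 in control, and 222.2, 280.6, 323.9, 334.0 and 302.8 in hypo. It read 324.0, 189.9, 237.1, 356.3 and 305.4 in hypo+, and 473.4, 436.6, 383.7 and 423.2 in hyper. All 4 hyper arrays were above every other array. The means were 284 ± 23.9 in control and 429 ± 37.0 in hyper (SD, n = 5 and 4), a log2 difference of 0.54 ± 0.14 that did not pass the test (limma, unadjusted p = 0.000957, adjusted p = 0.130).
Groups without overlap occurred for 2 of 24 members in this comparison, against 3.27% of all probe sets (1.68% higher and 1.59% lower), and both were Camk4 probe sets with opposite signs. The other, 1452572_at, read 112.2, 55.2, 62.1, 72.8 and 70.5 in control and 43.3, 35.5, 49.4 and 44.7 in hyper. In hypo it read 85.6, 74.5, 84.7, 40.7 and 30.7, and in hypo+ 72.0, 26, 87.6, 40.5 and 60.1. All hyper arrays were below control, and within the wide range of hypo and hypo+. The difference of hyper from control was -0.48 ± 0.21 (adjusted p = 0.428). In the authors' deposited table the lead had a fold of 1.51 for hyper against control with an adjusted permutation p of 0.0702, where it called 0 members, against 0.551% of all probe sets. In the authors' deposited table the lead had a fold of -1.48 for hypo against hyper with an adjusted permutation p of 0.0478. That deposited comparison of hypo with hyper called 1 member, against 2.15% of all probe sets.

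The call in hypo+ came from a further Camk4 probe set, 1421941_at. It read 65.5, 71.7, 54.0, 77.1 and 63.2 in control, 38.2, 41.5, 83.9, 67.0 and 72.5 in hypo, 33.9, 34.0, 32.2, 46.5 and 40.6 in hypo+, and 67.0, 53.3, 81.8 and 42.6 in hyper. Every hypo+ array was below every control array, while hypo replicates 1 and 2 and hyper replicate 4 were within the hypo+ range. The log2 difference from control was -0.50 ± 0.13 (limma, adjusted p = 0.04995, against a threshold of 0.05), and from hypo -0.39 ± 0.13 (adjusted p = 0.123). The authors' deposited table gave a fold of -1.77 and an adjusted permutation p of 0.014 against control.
Groups without overlap occurred for 3 of 24 members in hypo+ against control, all lower, against 4.07% of all probe sets in either direction and 2.54% lower. Of the 5 Camk4 probe sets all were negative in that comparison, at -0.50 to -0.03, while in hyper 3 were positive and 2 negative. Without both arrays with Y-linked signal the value for 1421941_at was -0.48 with an adjusted p of 0.0697, so the call was lost. It was also lost without any 1 of the control or hypo+ arrays, without hypo replicate 4 or 5, and without hyper replicate 1 or 2, with adjusted p up to 0.118. The difference itself ran from -0.81 with a pseudocount of 1 to -0.27 with a pseudocount of 100. Pairwise r between Camk4 probe sets over 19 arrays ran from -0.34 to 0.64, and which part of the transcript each probe set reads is unknown here.

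**Figure D2:**
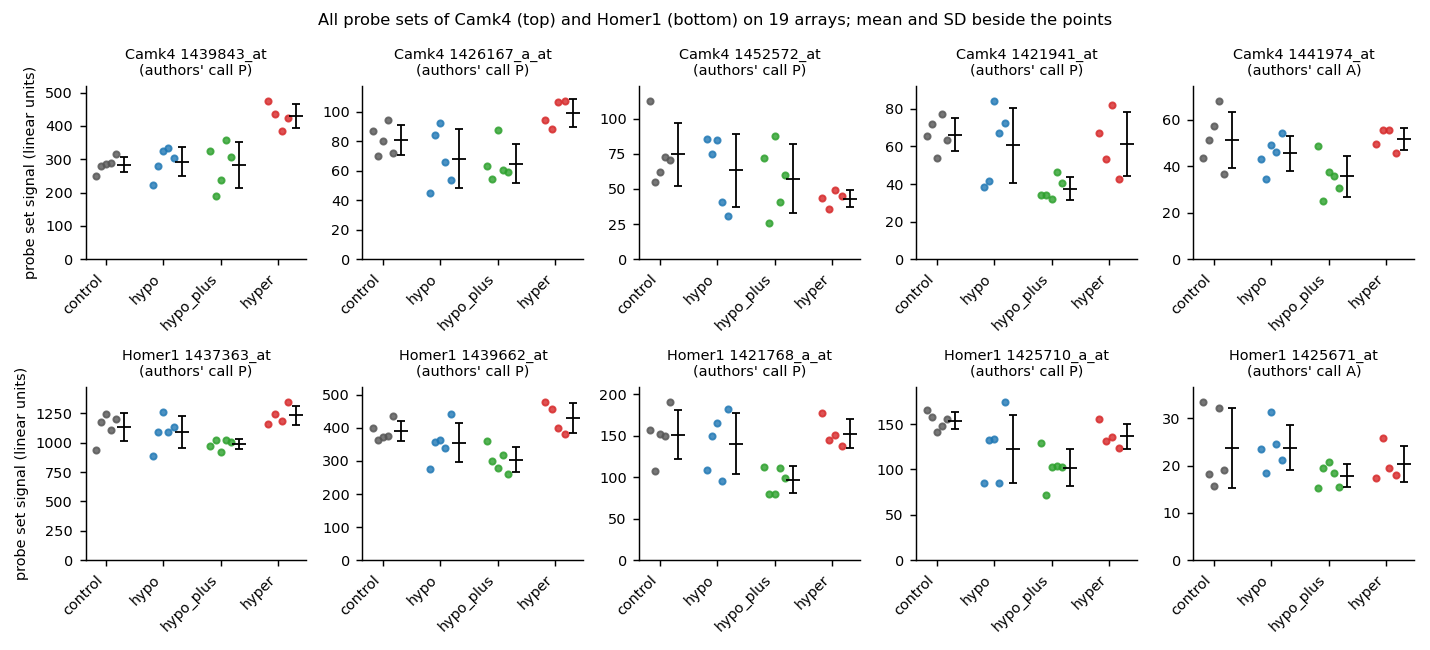
Signal (linear units) on each array for the probe sets of Camk4 and Homer1, by group, with the mean ± SD. Camk4 1439843_at is highest in hyper, Camk4 1421941_at is lowest in hypo+, and the Homer1 probe sets called present are lowest in hypo+.

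Homer1 encodes a scaffold of the postsynaptic density that links metabotropic glutamate receptors to internal calcium stores. Its lead averaged 1134 ± 119 in control, 1092 ± 136 in hypo, 990 ± 43.3 in hypo+ and 1231 ± 81.4 in hyper (SD). The hypo+ difference from control was -0.19 ± 0.08 (limma, adjusted p = 0.267), with arrays at 920.2 to 1023.2 against 940.3 to 1242.9.
Probe set 1439662_at read 400.8, 363.3, 372.5, 376.1 and 436.6 in control, and 360.0, 300.8, 279.4, 318.6 and 260.2 in hypo+. In hypo it read 274.6, 357.3, 363.6, 339.0 and 440.4, and in hyper 476.9, 457.4, 400.3 and 380.8. Every hypo+ array was below every control array, and hypo spanned both. The difference from control was -0.33 ± 0.10 (adjusted p = 0.0841).
Probe set 1425710_a_at read 165.9, 158.1, 141.0, 147.8 and 155.7 in control, and 129.0, 72.1, 102.7, 103.5 and 103.2 in hypo+. In hypo it read 85.6, 132.2, 133.8, 85.2 and 173.9, and in hyper 156.0, 131.0, 136.0 and 123.9. All hypo+ arrays were again below control. The difference was -0.48 ± 0.14 (adjusted p = 0.0617).
Probe set 1421768_a_at read 157.2, 107.9, 151.7, 150.3 and 190.5 in control, and 112.9, 80.1, 79.7, 111.8 and 99.7 in hypo+. In hypo it read 108.6, 149.5, 165.5, 96.2 and 182.5, and in hyper 177.1, 145.1, 151.4 and 138.2. The hypo+ and control groups overlapped through control replicate 2. The difference was -0.50 ± 0.14 (adjusted p = 0.0600). All 5 Homer1 differences in hypo+ were negative, 4 with an unadjusted p under 0.05 and none past the adjusted threshold. The authors' deposited table gave folds of -1.56 and -1.53 for 1421768_a_at and 1425710_a_at, with adjusted permutation p of 0.03 and 0.0376, and called 3 members in that comparison, against 4.27% of all probe sets.
These 3 probe sets correlated with each other at r = 0.78 to 0.83 over the 19 arrays, which include the group differences. Without both arrays with Y-linked signal 1425710_a_at was at -0.55 in hypo+ against control (adjusted p = 0.0461) and 1439662_at at -0.39 (adjusted p = 0.0468), and both then passed. Against hypo, all 5 Homer1 differences of hypo+ were negative too, at -0.40 to -0.13, and none passed (limma). They were -0.40 ± 0.14 for 1421768_a_at (adjusted p = 0.131), -0.20 ± 0.10 for 1439662_at (0.335) and -0.18 ± 0.14 for 1425710_a_at (0.560). In hypo against control 1425710_a_at was already at -0.30 ± 0.14 (unadjusted p = 0.0387, adjusted p = 0.574).

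Markers of brain regions were read in the same comparison, and the 9 cortex markers summed to at least 14544.6 on every array. Of the 9 cortex markers 1 had a positive difference from control, with a list median of -0.22, and their summed signal ranged from 17357 to 22448 in control and from 15539 to 20917 in hypo+. Of 8 hypothalamus and thalamus markers 7 had a positive difference, with a median of 0.61, and their summed signal ranged from 580.7 to 2527.4 in control and 628.3 to 3026.1 in hypo+. None of either list was called in hypo+ against control. Of 13 striatal markers Foxp1 rose, at 0.38 ± 0.09 (limma, adjusted p = 0.0278), with 7 positive and a median of 0.03. Of 8 markers of neuron maturity Syp, which encodes the synaptic vesicle protein synaptophysin, fell, at -0.46 ± 0.11 (adjusted p = 0.0358), with 2 positive and a median of -0.07. Over all probe sets 3.11% were called in hypo+ against control. The summed signal of the maturity markers ranged from 29732 to 38831 in control and from 32884 to 35386 in hypo+. The part of these 4 lists in the Homer1 and Camk4 results was not tested.

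Nrgn encodes neurogranin, a postsynaptic protein that binds calmodulin at low calcium. Its probe set averaged 78.9 ± 16.1, 91.0 ± 27.7, 81.4 ± 11.3 and 89.4 ± 17.3 in control, hypo, hypo+ and hyper (SD, n = 5, 5, 5 and 4). The differences from control were at most 0.13, within the spread of arrays.

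Rasd2 encodes Rhes, a small G protein of striatal neurons. Its lead averaged 51.7 ± 13.6 in control, 46.3 ± 14.5 in hypo, 63.4 ± 23.7 in hypo+ and 40.3 ± 19.3 in hyper (SD). The groups overlapped, with hypo+ arrays at 38.6 to 93.5 and hyper arrays at 25.4 to 68.5. Of 13 striatal markers 9 had a positive difference in hypo+ against hypo, with a median of 0.20, and 1, Ebf1, rose past the test. Their summed signal was 6712 to 7598 in hypo+, 4630 to 7036 in hypo and 5205 to 6982 in control, and its part in the Rasd2 values was not tested. Of 9 cortex markers 1 had a positive difference in hypo+ against hypo, with a median of -0.325. Fezf2 of that list fell, at -0.80 ± 0.19 (limma, adjusted p = 0.0259), where 3.16% of all probe sets were called. Of 8 hypothalamus and thalamus markers 5 were positive, with a median of 0.393, and none passed. Of 8 markers of neuron maturity 6 were positive in hypo+ against hypo, with a median of 0.115, and none passed. The part of these markers in the hypo+ against hypo results was not tested.

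The neurofilament genes Nefm and Nefh encode the medium and heavy subunits of the axonal cytoskeleton. Nefm read 924.0, 602.4, 603.7, 640.3 and 808.0 in control and 656.8, 629.7, 626.4, 771.7 and 516.9 in hypo. It read 1053.8, 632.1, 1019.3, 1148.7 and 881.1 in hypo+ and 672.2, 1019.5, 865.7 and 504.0 in hyper. Of the hypo+ arrays, 4 were above all hypo arrays, and replicate 2 lay within the hypo range. The difference from hypo was 0.53 ± 0.18 (limma, adjusted p = 0.126) and from control 0.38 ± 0.18 (adjusted p = 0.296). Nefl, the light subunit and no member, differed by 0.59 ± 0.23 between hypo+ and hypo and did not pass either. Nefh was called absent, with arrays at 16.5 to 37.6 and no difference above 0.14.

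Ntf3 encodes neurotrophin 3, a survival factor for neurons that binds the receptor TrkC. Its lead read 51.4, 71.7, 49.3, 76.3 and 71.3 in control and 81.2, 53.5, 63.6, 36.7 and 58.1 in hypo. It read 48.8, 45.4, 51.1, 47.2 and 42.6 in hypo+ and 48.6, 51.1, 49.4 and 39.6 in hyper. Both hormone groups lay at the low end of control and overlapped it through control replicate 3. The differences from control were -0.27 ± 0.11 in hypo+ (limma, adjusted p = 0.196) and -0.27 ± 0.11 in hyper (adjusted p = 0.402). The other probe set was absent and differed by -0.11 and 0.05.

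Stat5a encodes a transcription factor that carries cytokine and growth hormone signals to the nucleus. Its lead averaged 61.4 ± 17.4 in control, 58.3 ± 14.9 in hypo, 55.4 ± 10.5 in hypo+ and 53.7 ± 16.6 in hyper (SD), with all groups overlapping and differences of at most 0.12 in size.

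Thrsp encodes the Spot 14 protein, a hormone responsive regulator of lipid synthesis first known from liver. Probe set 1424737_at read 81.4, 46.7, 50.5, 96.9 and 52.1 in control and 75.3, 78.0, 95.6, 61.8 and 82.0 in hypo. It read 44.7, 40.5, 57.2, 47.2 and 51.0 in hypo+ and 56.6, 83.0, 50.5 and 72.6 in hyper. Every hypo+ array was below every hypo array, the 1 member of 24 without overlap in that comparison, against 5.1% of all probe sets and 1.77% lower. The difference was -0.46 ± 0.13 (limma, adjusted p = 0.0604). The authors' deposited table gave a fold of -1.63 with an adjusted permutation p of 0.0264, the 1 member it called there, against 4.84% of all probe sets. The Thrsp lead went the other way, at 0.20 ± 0.14 between hypo+ and hypo, and the remaining probe set, 1422973_a_at, was at -0.31 ± 0.13.

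**Figure D3:**
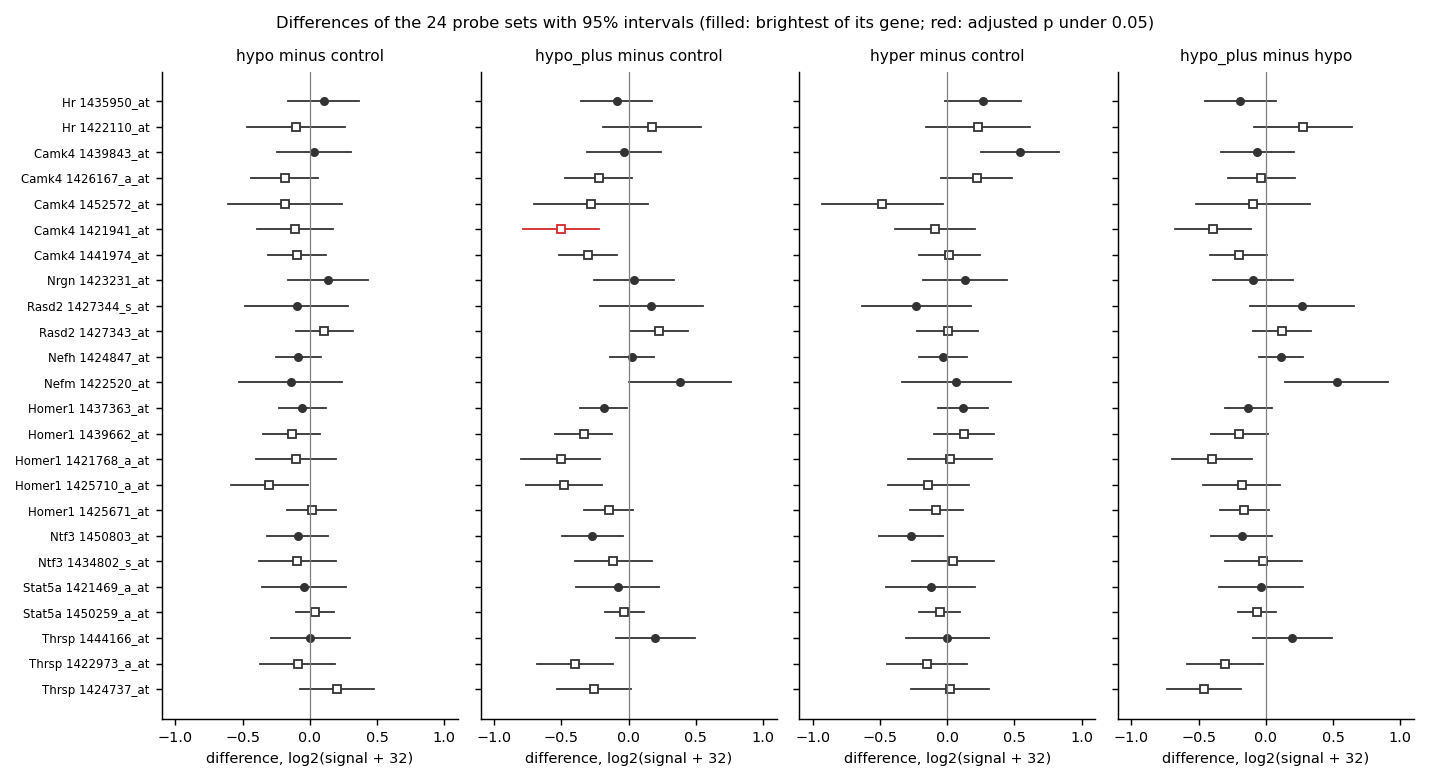
Log2 difference with its 95% interval (limma) for the 24 probe sets in the pairwise comparisons. The intervals of most members include 0, and those of the Homer1 probe sets called present lie below 0 in hypo+ against control.

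Ordered by group mean, the leads differed by 1.14 times between the lowest and the highest group for Stat5a and by 1.57 times for Rasd2, with Camk4 at 1.52, Nefm at 1.48 and Hr at 1.41. The step from hypo to hyper for Camk4 was the one place where neighbouring groups did not overlap.

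**Figure D4:**
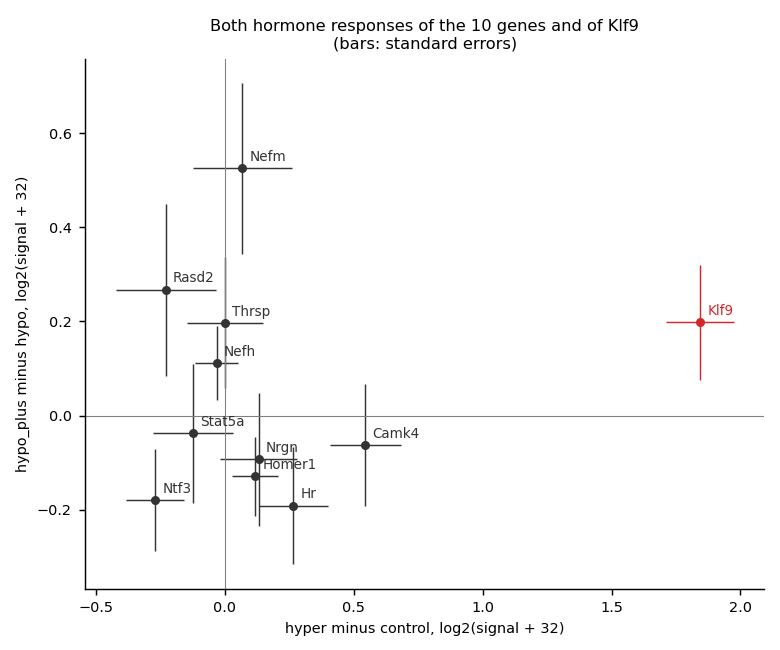
Log2 response to hormone of the lead probe set of each gene, hypo+ over hypo against hyper over control. Camk4 lies at 0.54 in hyper and -0.06 in hypo+, and Nefm at 0.53 in hypo+ and 0.07 in hyper.

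The hormone response was also tested for a difference between the groups. Limma called 0 of 24 members, against 0.0133% of all probe sets, with 4 members at an unadjusted p under 0.05, against 6.49%. The largest size was that of Camk4, at -0.61 ± 0.19 (adjusted p = 0.574). For the mean of both responses limma called 0 members, against 5.2% of all, and 6 had an unadjusted p under 0.05, against 18.8%.

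Other genes of each member's pathway were read from lists. The list of 28 other hormone responsive brain genes holds Klf9, which is left out of its count because its probe sets carry a second symbol. Dio3 was left out too, as no probe set with Dio3 as its only symbol was found. Of the remaining 26 Dbp, a clock output factor, was higher in hyper than in control at 0.93 ± 0.15 (limma, adjusted p = 0.0178). None was lower, and 0.175% of all probe sets were called there. In hypo+ against hypo, where 3.16% of all probe sets were called, 1 of the 26 rose and 1 fell. These were Shh at 0.59 ± 0.16 (adjusted p = 0.0488) and Dab1 at -0.50 ± 0.13 (adjusted p = 0.0460). Of 18 calcium and calmodulin kinase genes 1, Camkk2, a kinase that activates Camk4, rose in hypo+ against hypo, at 0.57 ± 0.14 (adjusted p = 0.0347). Against control Camkk2 was at -0.328 in hypo, the lowest of the list. It was the highest of the list in hypo+ (0.245) and in hyper (0.425), and passed in none of these comparisons. For the mean hormone response Camkk2 was at 0.50 ± 0.10 (limma, adjusted p = 0.00869), where 5.2% of all probe sets were called. None of the 4 filament genes, 10 Homer partners, 8 neurotrophin genes, 16 Jak-Stat genes, 9 lipogenic genes, 6 genes around Rasd2 or 13 hairless partners passed in any of the 4 pairwise comparisons.

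Among 11355 genes, the lead profiles closest to that of Camk4 over the 19 arrays were Hivep3 and Kcnk1, each with r = 0.87, and Zfp329 with r = 0.84. For Hr they were Plxnd1, Jag2 and Slc29a1, with r = 0.77, 0.73 and 0.72. These values share the arrays and the group differences.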

How the data were processed

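The deposited values were probe-set intensities on a linear scale, already summarised and normalized by the authors; RMA and MAS5 are named, without versions or roles, in the submitters' processing notes. The deposited table of the authors also held present calls, F values and signed folds, read as a score, and adjusted permutation p-values. Arrays carry no read depth, so their number limits the precision. A genome build was not stated.

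The 19 arrays were grouped by their labels. For 45037 probe sets, log2(intensity + 32) was fitted with limma 3.58.1 (lmFit and eBayes, R 4.3.3), all 4 groups in one model with 15 residual degrees of freedom and no covariate. A call was an adjusted p under 0.05. The hormone responses were compared as an interaction. The lead probe set of a gene had its highest mean signal. Named genes were the 10 members, Klf9, Nefl, Ddx3y, list genes past the threshold, and the 3 genes with the profile closest to Hr and to Camk4. Not described above, the oligodendrocyte marker Cnp was called higher in hypo+ against hypo, where 3.16% of all probe sets were called. Of 7 oligodendrocyte markers 5 were positive there. For the mean hormone response 5.2% of all probe sets were called. The astrocyte markers Gfap and Slc1a2 were called lower in it, with 2 of 8 astrocyte markers positive. The microglia marker Csf1r was called higher. Only 2 of 6 microglia and blood markers were positive, with a median of -0.06, and the microglia marker Aif1 was lowest at -0.084. The fit was tested on simulated data. No arrays held identical values. Replicate numbers were not used to pair arrays in the main fit. Over 27 same-numbered pairs the correlation of deviations ran from -0.369 to 0.439, and 8 were over 0.1. The median was 0.001, against 0.007 for different numbers, and 4 of 19 arrays had their best match under their own number. The highest value was between control and hypo+ of replicate 1, so likeness of some arrays of that number stays possible. The members and lists were chosen with earlier results of these data known.

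Alternatives covered the pseudocount (1 and 100), quantile normalization, median centring, filters, gene summaries, array weights, the prior, the arrays in the fit, a replicate block, thresholds and leaving out arrays.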

Additional observations from a re-analysis of the deposited data

Results flagged for a closer look

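Of 96 groups of arrays tested over the 24 member probe sets, 3 held an array far from the rest of its group (3.12%), where chance flags about 1 group in 20. Camk4 probe set 1426167_a_at read 87.6 in hypo+ replicate 3, and 54.2 to 63.2 on the other hypo+ arrays. Rasd2 probe set 1427343_at, called absent, read 75.6 in hypo+ replicate 2, and 43.8 to 52.9 on the others. Thrsp probe set 1422973_a_at read 101.8 in control replicate 4, and 69.5 to 74.9 on the others.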

How the results depend on the processing

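In hypo and in hyper against control the count of members called was 0 under all 34 alternatives. In hypo+ against control the count was 1, with 1400 probe sets called in all. It became 0 with 1 probe set per gene (162 genes in all) and with the mean of a gene's probe sets (121). It was also 0 with a pseudocount of 100 (1440 probe sets in all), with a trended and robust prior (1243), and under a rule of fold 1.5 and unadjusted p under 0.05 (485). The count was 4 after quantile normalization (1675 in all) and 6 after median centring (1996). With present calls only it was 3 (1425), at a mean signal of at least 100 it was 2 (1339), and with array weights 3 (2050). At an adjusted p under 0.10 it was 4 (2534), and 2 when both Y-positive arrays were dropped (1397). When 1 array was left out it was 0 to 3 (605 to 1884). With the replicate number as a block it was 0, and limma called 988 probe sets in place of 1400. In hypo+ against hypo the count was 0, with 1421 called in all. It was 2 after quantile normalization (2261 in all), 2 after median centring (1287) and 1 with present calls only (1581). With array weights it was 2 (2020), with only the arrays compared 1 (1285), and at an adjusted p under 0.10 it was 1 (2825). When 1 array was left out it was 0 to 2 (753 to 1692). The mean hormone response gave 0 members in the main fit (2342 in all) and 1 after quantile normalization (3064). It gave 2 after median centring (2427) and 0 to 1 with 1 array left out (1508 to 2862). The difference of responses gave 1 (Camk4) under the fold rule (425 in all), in place of 0 (6). Median centring moved the median of all probe sets to -0.11 in hypo+ against control. Of 60 changes of lead probe sets, 28 kept their sign under every alternative and 56 were called under none. Camk4 in hyper against control ran from 0.04, with the mean of its probe sets (adjusted p = 0.931), and was 0.49 after quantile normalization and 0.44 after median centring. The call of Camk4 1421941_at held in 11 of 31 alternatives, with adjusted p from 0.0127 to 0.118 and a difference from -0.81 (pseudocount of 1) to -0.27 (pseudocount of 100). The Homer1 probe sets 1421768_a_at and 1425710_a_at were called in 9 and 11 of 32. The causes were not tested. Of the 24 probe sets 7 had a mean signal of at least 100, and the others lay near or below the array medians of 73.1 to 106.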
